A study of Mus musculus with 8 samples.

Results

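The regulators of mitochondrial biogenesis described here were 9 genes of the PGC-1 pathway, found by symbol among the 25124 genes of the expression table: *Ppargc1a*, *Ppargc1b*, *Esrra*, *Pparg*, *Nrf1*, *Gabpa*, *Tfam*, *Tfb2m* and *Polg*. All 9 had a row, and 8 of them passed the expression filter and were tested. They were measured by RNA-seq in mouse osteoclast precursor cells, which were cultured from bone marrow with M-CSF, the cytokine that keeps the macrophage lineage alive. All 8 cultures were first kept in 5 ng/mL M-CSF for 16 h, after which the non-adherent cells were expanded with 30 ng/mL M-CSF for 3 days, and then received 30 ng/mL M-CSF for 48 h. The 4 groups, with 2 libraries each, received nothing more (no PRDX1 + no RANKL), 200 nM recombinant PRDX1 (PRDX1 + no RANKL), 100 ng/mL RANKL (no PRDX1 + RANKL), or 200 nM PRDX1 and 100 ng/mL RANKL together (PRDX1 + RANKL). RANKL is the cytokine that starts osteoclast differentiation, and PRDX1 is a peroxiredoxin given here as an extracellular protein. It was made in bacteria with a histidine tag and cleared of endotoxin. How RANKL and M-CSF were made is not given in the sources used here. By the labels the bone marrow came from C57BL/6 mice of 6 to 8 weeks. The study's methods for the cell cultures name ICR mice instead. How many animals were used, or whether they were pooled, is not stated, so p-values measure the spread between these libraries, which may be technical.

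Osteoclasts are rich in mitochondria, and new mitochondria are built through the PGC-1 coactivators, which bind no DNA themselves. PGC-1α (*Ppargc1a*) and PGC-1β (*Ppargc1b*) dock on transcription factors such as ERRα (*Esrra*), PPARγ (*Pparg*), NRF-1 (*Nrf1*) and the ETS factor GABPα (*Gabpa*, also called NRF-2α), and these act on nuclear genes of respiration. Among those genes are the factors that serve the mitochondrial genome itself, with *Tfam* packaging mitochondrial DNA and starting its transcription, *Tfb2m* opening its promoters and *Polg* copying it. In osteoclasts, PGC-1β is the member best known for driving mitochondrial biogenesis.

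The values were FPKM (fragments per kilobase of transcript, scaled to the library total), so levels can be compared between genes per length. Library totals ranged from 27284653 to 46171827 reads. Of the reads on genes, 24542578 to 41712973 per library, the 10 most abundant genes took 4.75% to 9.69%. A panel of 12 osteoclast markers had a summed level of 89.5 to 90.2 FPKM in the cells without additions, 143 to 147 FPKM with PRDX1 alone, 1929 to 2029 FPKM with RANKL alone and 295 to 303 FPKM with both. *Acp5* alone gave 1073 to 1137 FPKM of that sum with RANKL alone. Of the 12, only *Ostm1* was lower with RANKL alone (33.7 to 34.2 FPKM) than without additions (39.2 to 39.5 FPKM). With PRDX1 alone *Itgb3* and *Ostm1* lay below the cells without additions. All 9 macrophage markers were detected in every group, and their sum was 15769 to 17532 FPKM without additions, 16612 to 17076 FPKM with PRDX1 alone, 9880 to 10300 FPKM with RANKL alone and 13467 to 13866 FPKM with both. *Lyz2* alone gave 13253 to 14982 FPKM of it without additions and 8326 to 8867 FPKM with RANKL alone. In bulk RNA a change in the number of cells of a type cannot be told apart from a change in RNA per cell. Neutrophil markers summed to 8.62 to 12.8 FPKM without additions and 40.2 to 44.4 FPKM with PRDX1 alone, and to 16.4 to 17.3 FPKM with RANKL alone and 35.3 to 38.9 FPKM with both. Bone marrow stromal cell markers summed to 8.09 to 10.9 FPKM without additions and 17.2 to 17.4 FPKM with PRDX1 alone, and to 8.02 to 9.98 FPKM with RANKL alone and 16.1 to 19.95 FPKM with both. Mature dendritic cell markers summed to 5.63 to 6.27 FPKM with RANKL alone and 12.3 to 12.4 FPKM with both, against 9.15 to 9.58 FPKM without additions and 10.4 FPKM in both libraries with PRDX1 alone. These markers did not move together: *Cd83* was at 6.50 to 7.02 FPKM without additions, 4.26 to 4.53 FPKM with PRDX1 alone, 0.876 to 0.949 FPKM with RANKL alone and 1.53 to 1.72 FPKM with both. *Ccr7* was at 0.050 to 0.070 FPKM, 0.914 to 1.08 FPKM, 0.668 to 0.693 FPKM and 2.12 to 2.56 FPKM in the same order of groups, and *Ccl22*, *Fscn1* and *Zbtb46* were likewise higher with PRDX1 alone and with RANKL alone than without additions. B cell markers, none of which passed the expression filter, summed to 0.654 to 1.02 FPKM without additions, 1.74 to 2.21 FPKM with PRDX1 alone, 0.709 to 0.957 FPKM with RANKL alone and 1.47 to 1.64 FPKM with both. The part of these markers in the changes of the regulators was not tested.

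The 250 bases before the transcription start are shown for 3 genes that were higher with RANKL (*Esrra*, *Tfam* and *Tfb2m*) and for *Pparg*, which was lower, because this is where NRF-1, GABP or ERRα would act on the pathway's own genes. The windows come from RefSeq on GRCm38.p6 (mm10), read 5′ to 3′ on the gene's strand, and end at the base before the start of the counted transcript. They cover chr19:6921809-6922058 on the minus strand for *Esrra*, chr10:71238045-71238294 on the minus strand for *Tfam*, chr1:179546277-179546526 on the minus strand for *Tfb2m* and chr6:115362099-115362348 on the plus strand for *Pparg*. Capitals mark the motif matches found.
Esrra: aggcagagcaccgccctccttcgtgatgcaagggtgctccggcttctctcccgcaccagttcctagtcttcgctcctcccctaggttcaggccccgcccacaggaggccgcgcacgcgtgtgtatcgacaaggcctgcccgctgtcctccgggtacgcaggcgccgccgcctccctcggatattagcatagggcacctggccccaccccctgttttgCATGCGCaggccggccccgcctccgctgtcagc
Tfam: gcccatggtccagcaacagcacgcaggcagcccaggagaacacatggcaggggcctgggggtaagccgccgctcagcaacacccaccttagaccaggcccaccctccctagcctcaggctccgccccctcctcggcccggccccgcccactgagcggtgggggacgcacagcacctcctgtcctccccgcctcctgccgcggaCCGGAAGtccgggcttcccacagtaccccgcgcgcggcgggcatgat
Tfb2m: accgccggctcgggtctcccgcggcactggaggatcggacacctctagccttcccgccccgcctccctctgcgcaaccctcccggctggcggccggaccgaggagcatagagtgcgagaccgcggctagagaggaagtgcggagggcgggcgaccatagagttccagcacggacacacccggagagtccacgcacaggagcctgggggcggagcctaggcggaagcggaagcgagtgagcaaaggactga
Pparg: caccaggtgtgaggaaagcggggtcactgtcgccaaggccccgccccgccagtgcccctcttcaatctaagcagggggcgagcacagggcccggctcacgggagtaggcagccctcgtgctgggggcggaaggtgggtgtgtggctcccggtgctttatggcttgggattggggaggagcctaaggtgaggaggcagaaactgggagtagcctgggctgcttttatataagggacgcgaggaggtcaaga

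The motifs searched on both strands were the full palindromic NRF-1 site, its first part GCGCATG, the ERR site AAGGTCA, the ETS site CCGGAAG that GABP can bind, the CREB site TGACGTCA, the E-box CACGTG, the AP-1 site TGANTCA and the YY1 site AAGATGGC. GCGCATG was the only motif that lies within another. The *Esrra* window held the NRF-1 part on its minus strand, 33 to 27 bases before the start, a motif present in 3.24% of 32851 windows of the same length from all genes. In *Tfam* the match was an ETS site at 47 to 41 bases before the start, and 6.91% of all windows hold that motif. Neither *Tfb2m* nor any of the 3 *Pparg* windows held a match. Of the members not printed, *Polg* had an ETS site 38 to 32 bases before a RefSeq start that lies 2393 bases upstream of its counted transcript, and *Gabpa* had an ETS site at 93 to 87 bases and a YY1 site at 67 to 60 bases, the latter motif being held by 1.56% of all windows. *Nrf1* and *Ppargc1a* had no match, and 8 of the 9 genes had a window. The motif matches describe these letters only.

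*Ppargc1b* and *Ppargc1a* were far apart in these cells. No read of *Ppargc1a* (chr5:51454249-51567725) was counted in 7 of the 8 libraries, and 2 reads, or 0.009 FPKM, in PRDX1 + no RANKL replicate 2. A count of 0 allows up to 3 reads, which is 0.0102 to 0.0172 FPKM at these depths and covers counting error only. *Ppargc1b*, on chromosome 18, was counted in every library with 139 to 1195 reads. In the 7 libraries without a *Ppargc1a* read, *Ppargc1b* was at least 28.7-fold to at least 247-fold higher than *Ppargc1a* per length, the floor being set per library. The counted row of *Ppargc1a* is a transcript of 6391 bases with a noncoding accession, so reads of exons outside it would not be in this value.

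*Ppargc1b* rose with RANKL, and did so less in the presence of PRDX1. Its level was 0.455 and 0.571 FPKM in the 2 libraries without additions and 0.473 and 0.426 FPKM with PRDX1 alone. With RANKL alone it was 3.03 and 3.35 FPKM, and with both proteins 0.974 and 0.936 FPKM. The libraries with RANKL alone stood above all others, those with both stood next, and the 2 groups without RANKL overlapped. In linear FPKM, the mean with RANKL alone (3.19 ± 0.23, SD, n = 2) was 6.22-fold that of the cells without additions (0.513 ± 0.082, SD, n = 2). The mean with both (0.955 ± 0.027, SD, n = 2) was 3.34-fold lower than with RANKL alone.

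**Figure D1:**
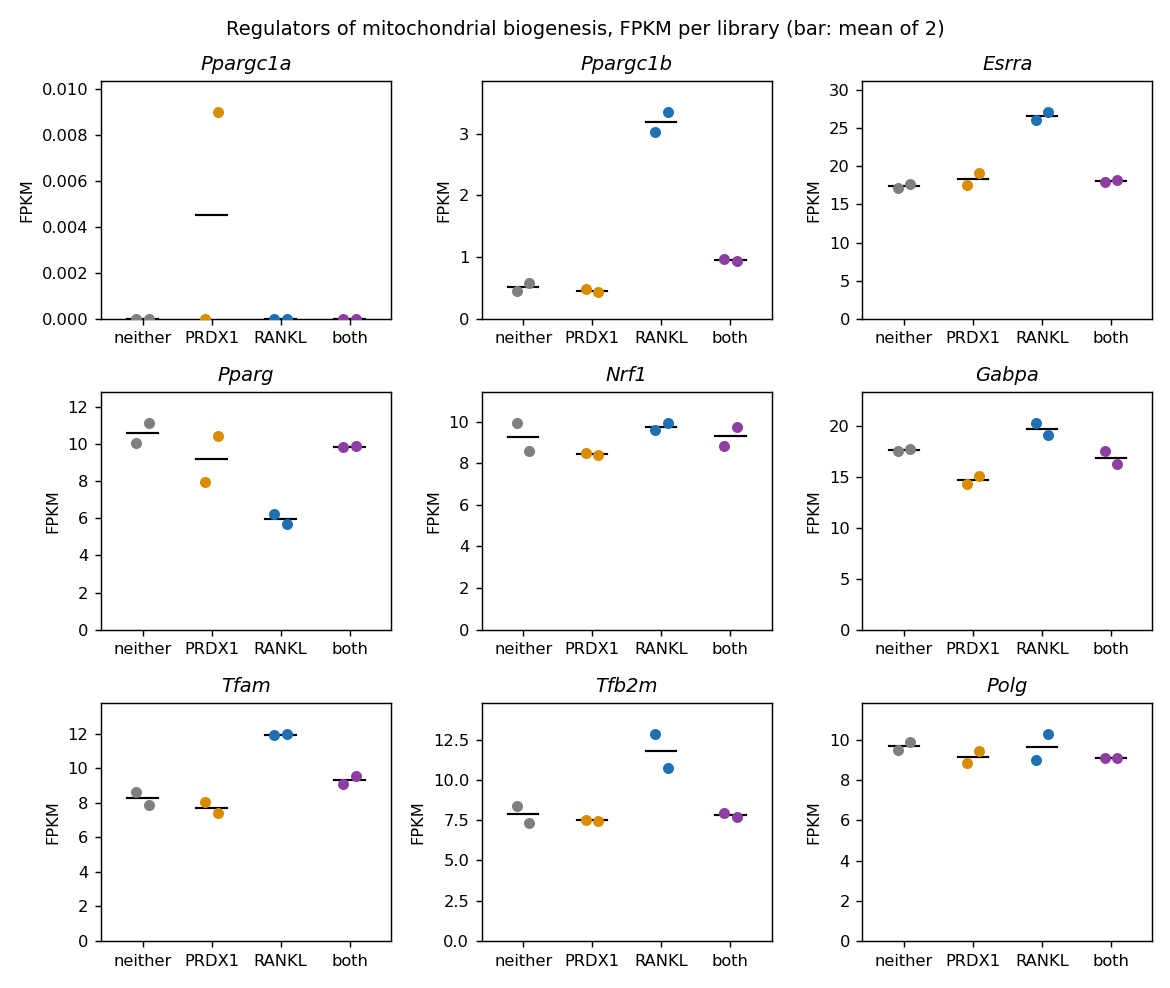
Level of each of the 9 regulators in FPKM (vertical axis, from 0, a different scale in each panel) in the 4 groups (horizontal axis: neither protein, PRDX1, RANKL, or both). Points are single libraries and bars the mean of 2; *Ppargc1b*, *Esrra*, *Tfam* and *Tfb2m* are highest with RANKL alone, *Pparg* is lowest there, and *Ppargc1a* is at 0 in 7 libraries.

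The test was limma on log2(FPKM + 1), and a gene was called at a Benjamini-Hochberg adjusted p under 0.05 over 11700 genes and a fold change of at least 1.5 on that scale. This scale compresses low levels, so the fold of *Ppargc1b* is smaller on it than in FPKM. On it, *Ppargc1b* rose by 1.47 with RANKL alone (SE 0.10, adjusted p = 8.85e-07) and fell by 1.10 when PRDX1 was added to RANKL (SE 0.10, adjusted p = 1.79e-05). PRDX1 without RANKL gave -0.06 (95% interval -0.29 to 0.17, adjusted p = 0.702). The interaction, which is the effect of PRDX1 under RANKL minus its effect in the absence of RANKL, was -1.04 (SE 0.14, adjusted p = 6.53e-04). RANKL in the presence of PRDX1 gave 0.43 (adjusted p = 0.00737) and both proteins against none gave 0.37 (adjusted p = 0.0143), which passed the adjusted p but stayed under the fold of 1.5. In linear FPKM these means differed 2.12-fold and 1.86-fold. Over the other settings the 2 changes reached 1.01 and 0.85, and both were called with a pseudocount of 0.1 and with voom. The comparison of both against none lost its adjusted p without no PRDX1 + no RANKL replicate 1, without PRDX1 + RANKL replicate 1, without PRDX1 + RANKL replicate 2 and under quantile normalization, with log2 changes of 0.32 to 0.43 over all left-out libraries.

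*Esrra* (chr19:6910977-6921808), the orphan nuclear receptor that PGC-1β coactivates, was likewise highest with RANKL alone, at a far higher level. It stood at 17.1 and 17.7 FPKM without additions and at 17.5 and 19.1 FPKM with PRDX1 alone. The libraries with RANKL alone were at 26.05 and 27.1 FPKM, and those with both at 17.9 and 18.2 FPKM. RANKL alone was thus apart from the other 3 groups, which lay close to each other. Its mean with RANKL alone was 1.53-fold that without additions, and the mean with both differed from that with RANKL alone by -32.2%. On the log2(FPKM + 1) scale RANKL gave 0.58 (SE 0.06, adjusted p = 1.93e-05), just short of the fold of 1.5, and PRDX1 under RANKL gave -0.54 (SE 0.06, adjusted p = 7.84e-05). The interaction was -0.61 (SE 0.09, adjusted p = 8.26e-04). RANKL in the presence of PRDX1 gave -0.02 (95% interval -0.16 to 0.12, adjusted p = 0.804). Without no PRDX1 + no RANKL replicate 2, or without no PRDX1 + RANKL replicate 1, the change by RANKL was 0.61 and *Esrra* was called. *Esrra* shares 73 exon bases with *Trmt112* on the other strand. Reads were counted without regard to strand, and *Trmt112* had 27.1 ± 1.6 FPKM without additions and 41.6 ± 5.0 FPKM with RANKL alone (SD, n = 2).

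*Pparg* (chr6:115362349-115490401), a lipid-sensing nuclear receptor that also uses PGC-1 coactivators, ran the other way. Its level was 10.1 and 11.1 FPKM without additions, 7.95 and 10.4 FPKM with PRDX1 alone, 6.25 and 5.67 FPKM with RANKL alone, and 9.82 and 9.87 FPKM with both. Both libraries with RANKL alone lay below all others. *Pparg* fell by 0.74 with RANKL on the log2(FPKM + 1) scale (SE 0.11, adjusted p = 2.25e-04), and its mean FPKM fell by 43.7%. It rose by 0.64 when PRDX1 was added to RANKL (SE 0.11, adjusted p = 0.00101), a 1.65-fold higher mean FPKM. The interaction was 0.84 (SE 0.15, adjusted p = 0.00362), and with no filter on low values it missed the threshold (adjusted p = 0.0887). PRDX1 without RANKL gave -0.19 (95% interval -0.44 to 0.05, adjusted p = 0.221), with its 2 libraries further apart than in any other group. Without no PRDX1 + RANKL replicate 2 the rise under PRDX1 was 0.58 and no longer reached the fold of 1.5. *Pparg* is best known from adipocytes, and none of 8 adipocyte markers passed the expression filter. Their summed level was at most 0.051 FPKM in any library, and *Adipoq*, *Lep*, *Plin1*, *Cfd*, *Retn*, *Adrb3* and *Ucp1* had at most 3 reads in each. The adipocyte markers were thus near 0 where *Pparg* was read.

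The nuclear respiratory factors differed little between groups. *Nrf1* (chr6:30047988-30153458), which activates genes of the respiratory chain, was at 9.92 and 8.59 FPKM without additions, 8.47 and 8.41 FPKM with PRDX1 alone, 9.60 and 9.91 FPKM with RANKL alone and 8.81 and 9.76 FPKM with both. RANKL alone gave 0.07 (95% interval -0.11 to 0.25, adjusted p = 0.471) and PRDX1 under RANKL gave -0.07 (95% interval -0.25 to 0.12, adjusted p = 0.551). The libraries overlapped in both of these comparisons. *Gabpa* (chr16:84835124-84863778) was at 17.5 and 17.7 FPKM without additions, 14.3 and 15.0 FPKM with PRDX1 alone, 20.2 and 19.1 FPKM with RANKL alone and 17.5 and 16.2 FPKM with both. It was lower with PRDX1 than without it in both settings. The change by PRDX1 was -0.25 in the absence of RANKL (adjusted p = 0.0153) and -0.21 in its presence (adjusted p = 0.0225). RANKL alone gave 0.15 (adjusted p = 0.0625). The interaction was 0.04 (95% interval -0.16 to 0.24, adjusted p = 0.820). RANKL in the presence of PRDX1 gave 0.19 (adjusted p = 0.0386). None of these changes reached the fold of 1.5. This last adjusted p was lost under quantile, upper quartile and voom scaling and with no filter on low values, and of the 8 fits that leave out a library it held in 2, those without either library with RANKL alone. The changes by PRDX1 lost theirs with no filter on low values, and the one under RANKL also under upper quartile scaling. Without RANKL the adjusted p of PRDX1 was lost without either library that had no additions, or without PRDX1 + no RANKL replicate 1. With RANKL it was lost without no PRDX1 + RANKL replicate 1 or PRDX1 + RANKL replicate 2. *Gabpa* shares 298 exon bases with *Atp5j*, a subunit of ATP synthase on the other strand, whose level was 157 ± 7 FPKM without additions, 141 ± 5 FPKM with PRDX1 alone, 202 ± 13 FPKM with RANKL alone and 143 ± 3 FPKM with both (SD, n = 2). How many *Gabpa* reads came from *Atp5j* was not tested.

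*Tfam* and *Tfb2m*, which serve transcription of the mitochondrial genome, were higher with RANKL alone than in the other groups, while *Polg* was not. *Tfam* (chr10:71225477-71238044) was at 8.65 and 7.87 FPKM without additions, 8.06 and 7.40 FPKM with PRDX1 alone, 11.9 and 12.0 FPKM with RANKL alone and 9.09 and 9.55 FPKM with both. The libraries with both lay between the others. RANKL alone gave 0.49 (SE 0.07, adjusted p = 2.49e-04) and PRDX1 under RANKL gave -0.33 (SE 0.07, adjusted p = 0.00502). The interaction of -0.24 missed the threshold (95% interval -0.48 to -0.01, adjusted p = 0.124). RANKL in the presence of PRDX1 gave 0.24 (adjusted p = 0.0246), which lost its adjusted p without PRDX1 + no RANKL replicate 2, PRDX1 + RANKL replicate 1 or PRDX1 + RANKL replicate 2, under quantile, upper quartile and voom scaling, and with no filter on low values.

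*Tfb2m* (chr1:179528054-179546276) was at 8.40 and 7.36 FPKM without additions, 7.52 and 7.48 FPKM with PRDX1 alone, 12.8 and 10.8 FPKM with RANKL alone and 7.96 and 7.72 FPKM with both. The 2 libraries with RANKL alone were the highest and also the furthest from each other. RANKL alone gave 0.53 (SE 0.09, adjusted p = 6.14e-04) and PRDX1 under RANKL -0.53 (SE 0.09, adjusted p = 0.00104), both short of the fold of 1.5. That fold was reached for RANKL without no PRDX1 + no RANKL replicate 1 (0.61) or no PRDX1 + RANKL replicate 2 (0.64), and for PRDX1 without the latter (-0.65). The interaction was -0.47 (SE 0.13, adjusted p = 0.0255). It kept its adjusted p only without no PRDX1 + no RANKL replicate 1 or no PRDX1 + RANKL replicate 2, and lost it without any of the other 6 libraries.

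*Polg* (chr7:79446231-79463880), the catalytic subunit of the mitochondrial DNA polymerase, was at 9.49 and 9.88 FPKM without additions, 8.86 and 9.45 FPKM with PRDX1 alone, 9.02 and 10.3 FPKM with RANKL alone and 9.10 and 9.08 FPKM with both. The groups with RANKL overlapped each other and, for RANKL alone, the cells without additions. RANKL alone gave -0.01 (95% interval -0.18 to 0.16, adjusted p = 0.945) and PRDX1 under RANKL gave -0.08 (95% interval -0.25 to 0.10, adjusted p = 0.460). *Polg* shares 921 exon bases, over all annotated transcripts, with *Fanci*, which had 6.99 to 8.56 FPKM in the group means.

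**Figure D2:**
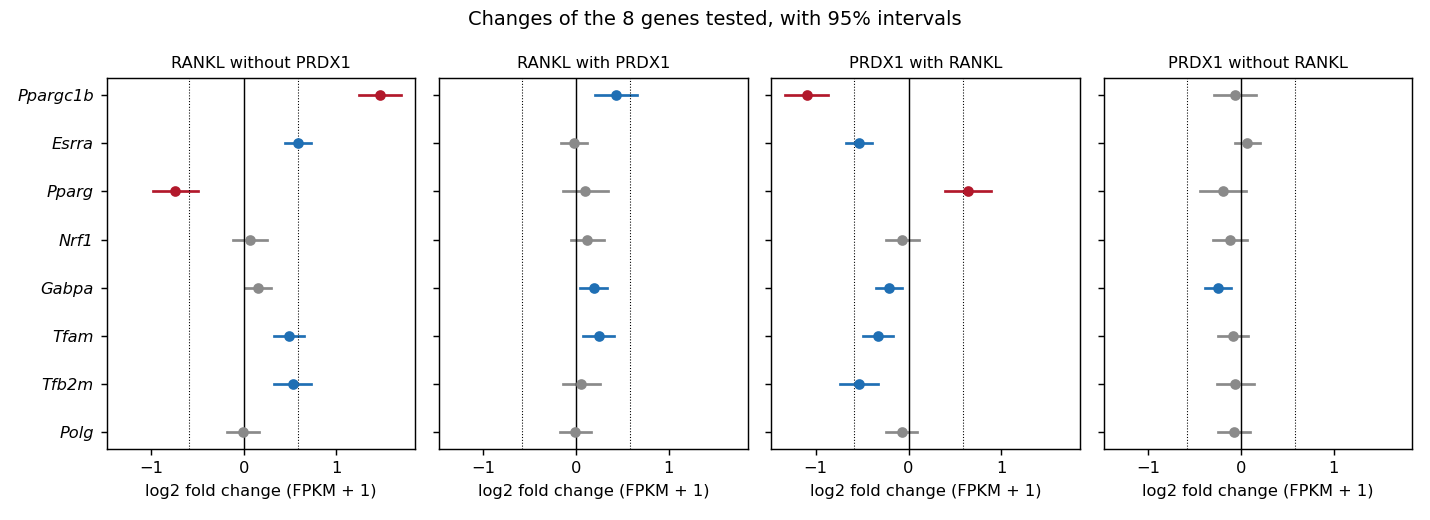
Log2 fold change on the log2(FPKM + 1) scale (horizontal axis) of the 8 tested regulators (vertical axis) in 4 comparisons, with 95% intervals from limma. Red marks calls, blue an adjusted p under 0.05 with a fold under 1.5, and grey the rest; dotted lines mark a fold of 1.5, which only *Ppargc1b* and *Pparg* pass, in both RANKL without PRDX1 and PRDX1 with RANKL.

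Counted over the 8 tested regulators, RANKL without PRDX1 gave 2 calls (*Ppargc1b* up and *Pparg* down), where 21.8% of all genes tested were called, 11.8% higher and 9.96% lower. By adjusted p alone it was 4 higher and 1 lower, against 37.0% and 22.9% of all genes. PRDX1 under RANKL gave 2 calls (*Pparg* up and *Ppargc1b* down) against 10.2% of all genes, 6.03% higher and 4.17% lower. By adjusted p alone 5 regulators were lower, where 25.6% of all genes were lower, and 1 was higher, where 16.9% were. The interaction passed for 4 of the 8 against 23.1% of all genes. It was negative for *Ppargc1b*, *Esrra* and *Tfb2m*, where 12.0% of all genes passed with a negative sign. PRDX1 without RANKL called 0 of the 8 by limma and 0 by voom, where 5.79% of all genes were called, 3.80% higher and 1.99% lower. *Gabpa* alone had an unadjusted or adjusted p under 0.05, being lower, as were 17.6% of all genes by adjusted p. RANKL in the presence of PRDX1 called 0 of the 8 by limma and 1 (*Ppargc1b*) by voom, with 8.50% of all genes called. *Ppargc1b*, *Gabpa* and *Tfam* had an unadjusted and an adjusted p under 0.05 there, all 3 higher, against 26.2% of all genes by adjusted p. Both proteins against none called 0 of the 8 by limma and 1 (*Ppargc1b*) by voom, where 12.8% of all genes were called. *Ppargc1b* alone had an unadjusted or adjusted p under 0.05 in it, being higher, against 24.7% of all genes by adjusted p. The comparisons of RANKL alone and of PRDX1 under RANKL share the libraries with RANKL alone, so their opposite signs are not independent.

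Ranked by level per length, *Gabpa* (17.6 FPKM) and *Esrra* (17.4 FPKM) led in the cells without additions, and their libraries overlapped. *Pparg*, *Polg*, *Nrf1*, *Tfam* and *Tfb2m* followed within 7.88 to 10.6 FPKM, in that order. The libraries of *Pparg* lay above those of *Polg*, while each later pair of neighbours overlapped. *Ppargc1b* was the lowest of the 8 in every group, at the 8.94th percentile of the tested genes by mean FPKM, whereas *Esrra* was at the 66.8th. Between the lowest and the highest group mean, *Ppargc1b* spanned 7.10-fold and *Pparg* 1.78-fold. The span was 1.57-fold for *Tfb2m*, 1.55-fold for *Tfam*, 1.53-fold for *Esrra*, 1.34-fold for *Gabpa*, 1.16-fold for *Nrf1* and 1.07-fold for *Polg*.

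Over the 8 libraries, *Ppargc1b* correlated on the log2(FPKM + 1) scale with *Tfam* (Pearson r = 0.96), *Esrra* (0.95) and *Tfb2m* (0.91), and inversely with *Pparg* (-0.88). The 8 points come from 4 groups of 2, so these values describe the group pattern. The genes most like *Ppargc1b* among all those tested were *Akap6* (r = 0.998), *Pnrc1* (0.997) and the hairpin row *Mir6984* (0.997). *Akap6*, an anchor protein for protein kinase A, had 0.030 FPKM without additions, 6.86 FPKM with RANKL alone and 0.858 FPKM with both. *Sphk1*, *Zfand5* and *Rasal2* were most like *Esrra* (r = 0.996, 0.992 and 0.991), and *Pmpcb*, *Tpd52l2* and *Pter* most like *Tfb2m* (0.988, 0.984 and 0.983). *Pmpcb* is a subunit of the peptidase that trims proteins entering mitochondria. For *Pparg* they were *Adam19*, *Fam234b* and *Tpst1* (0.983, 0.975 and 0.969).

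The other partners and upstream regulators of the PGC-1 proteins were called about as often as genes in general. Of 26 listed genes 22 were tested, and RANKL alone raised 2 (*Myc* and *Rxrb*), where 11.8% of all genes were called higher, and lowered 3 (*Mef2c*, *Rxra* and *Ppard*), where 9.96% were called lower. The list median was 0.17 against 0.0957 for all genes. *Mef2c*, a transcription factor that acts with PGC-1 in muscle, fell by 2.10 (adjusted p = 1.60e-09), from 27.7 ± 1.1 to 5.70 ± 0.18 FPKM (SD, n = 2). *Rxra*, the partner with which PPARγ binds DNA, fell by 1.30 (adjusted p = 8.06e-08), from 18.6 ± 0.4 to 6.97 ± 0.16 FPKM. *Rxrb*, another RXR, rose by 0.78 (adjusted p = 3.15e-06). *Ppard*, which encodes the related receptor PPARδ, fell by 0.998 (adjusted p = 1.06e-05), and *Myc* rose by 1.09 (adjusted p = 2.24e-07). With PRDX1 added to RANKL, *Mef2c* rose by 0.69 (adjusted p = 1.34e-05) and *Rxra* by 0.64 (adjusted p = 3.32e-05), the 2 calls of the list, where 10.2% of all genes were called. *Pprc1*, the third PGC-1 family gene, had 0.44 with RANKL (adjusted p = 0.00148) and 0.13 with PRDX1 under RANKL (adjusted p = 0.242).

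**Figure D3:**
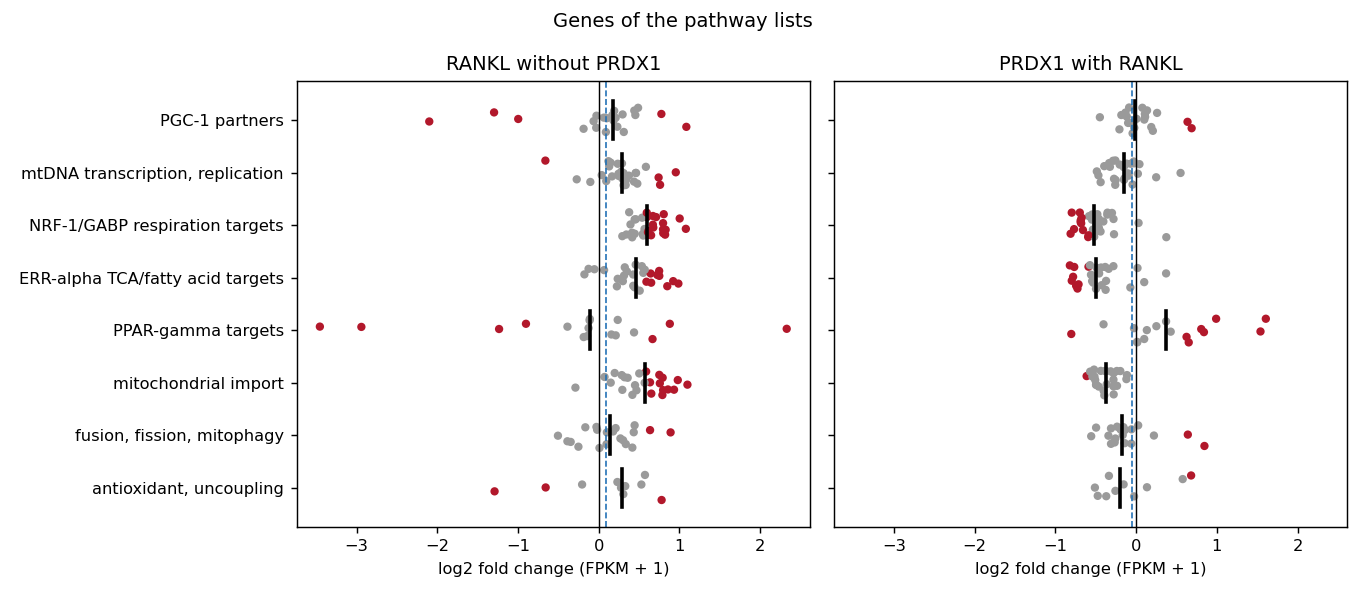
Log2 fold change on the log2(FPKM + 1) scale (horizontal axis) of each tested gene of 8 pathway lists (vertical axis) for RANKL without PRDX1 (left) and PRDX1 with RANKL (right), which share the libraries with RANKL alone. Red points are calls, black bars list medians and dashed blue lines the median of all 11700 genes; the medians of the respiration, TCA cycle and import lists lie to the right of the dashed line in the left panel and to its left in the right panel.

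Respiratory genes known as targets of NRF-1 and GABP rose with RANKL and were lower when PRDX1 was added. All 32 listed genes were tested, 18 were called higher with RANKL alone against 11.8% of all genes, and the median was 0.60 against 0.0957 for all genes. All 32 had a positive change and an adjusted p under 0.05, and voom called 10 of them. *Cyc1*, cytochrome c1 of complex III, rose by 1.08 (adjusted p = 1.29e-07), from 64.4 ± 2.5 to 137.2 ± 0.5 FPKM (SD, n = 2). *Uqcrfs1*, the Rieske protein of the same complex, rose from 62.2 ± 4.1 to 126 ± 4 FPKM (adjusted p = 1.37e-07). *Sdhd*, a membrane anchor of complex II, rose by 0.83 (adjusted p = 1.48e-07). PRDX1 under RANKL called 11 lower against 4.17% of all genes, with a median of -0.52 against -0.0571. *Uqcrh*, the hinge protein of complex III, fell by 0.81 (adjusted p = 2.47e-06). *Uqcrfs1* fell by 0.80 (adjusted p = 2.01e-06) and *Cyc1* fell by 0.77 (adjusted p = 3.98e-06). The exceptions included *Alas1*, the first enzyme of heme synthesis, at 0.37 under PRDX1 (adjusted p = 0.00272). In the interaction 29 of the 32 passed, all of them negative, against 12.0% of all genes, and 19 passed with no filter on low values. PRDX1 without RANKL called 0 of the 32 by limma and 0 by voom, where limma called 5.79% of all genes. Of the 32, 17 had an unadjusted p under 0.05, for which no share of all genes was counted. By adjusted p alone 12 were lower, where 17.6% of all genes were, and 3 were higher, for which no share of all genes was counted. The median was -0.09 against -0.0393 for all genes. Leaving out no PRDX1 + no RANKL replicate 2 gave 1 call there.

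ERRα target genes of the TCA cycle and fatty acid oxidation were likewise called higher with RANKL and lower with PRDX1 under RANKL. Of 29 listed, 27 were tested, and RANKL alone called 9, all of them higher, against 11.8% of all genes, with a median of 0.46 against 0.0957 for all genes. *Idh3a*, a subunit of isocitrate dehydrogenase, rose by 0.99 (adjusted p = 1.99e-07) and *Mdh2*, malate dehydrogenase, by 0.92 (adjusted p = 1.72e-07). PRDX1 under RANKL called 8, all of them lower, against 4.17% of all genes, with a median of -0.50 against -0.0571. *Mdh1* fell by 0.82 (adjusted p = 1.82e-06), *Idh3g* fell by 0.80 (adjusted p = 9.76e-06) and *Hadhb*, an enzyme of fatty acid oxidation, fell by 0.78 (adjusted p = 5.41e-06). *Mdh1* encodes the cytosolic malate dehydrogenase. *Cpt1a*, the gatekeeper of fatty acid entry into mitochondria, went against the list with 0.37 under PRDX1 (adjusted p = 0.00103). Of the acyl-CoA dehydrogenases, *Acadm* had 0.22 (adjusted p = 0.0123) and *Acadl* 0.07 (adjusted p = 0.411) with RANKL alone. The interaction passed for 15 of the 27, all negative, against 12.0% of all genes. PRDX1 without RANKL called 0 of the 27 by limma and 0 by voom, where limma called 5.79% of all genes. In this comparison 18 had an unadjusted p under 0.05, for which no share of all genes was counted. In it 11 of the 27 were lower by adjusted p alone, where 17.6% of all genes were, and 1 was higher, for which no share of all genes was counted. The median was -0.17 against -0.0393.

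**Figure D4:**
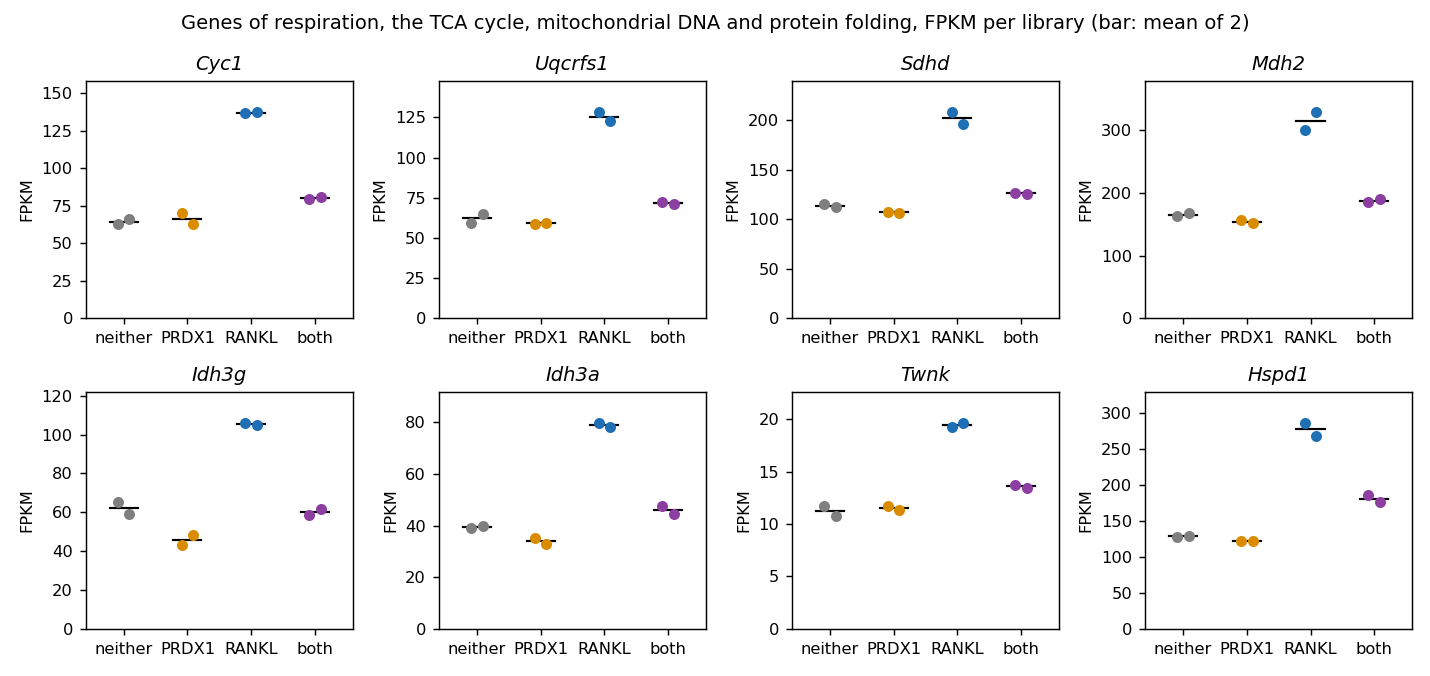
FPKM (vertical axis, from 0, a different scale in each panel) in the 4 groups (horizontal axis) of 8 mitochondrial genes picked from those the fixed rule names. All 8 were called higher with RANKL alone or lower with PRDX1 under RANKL, so their shared pattern partly reflects that choice. Points are single libraries and bars the mean of 2. In every panel the 2 libraries with RANKL alone lie above the other 6. *Polg2* and *Alas1*, not shown, do not have this pattern.

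Of the 29 listed genes that replicate and transcribe mitochondrial DNA, RANKL alone called 3 higher and 1 lower, where 11.8% of all genes were called higher and 9.96% lower. By adjusted p alone 18 were higher and 2 lower, against 37.0% and 22.9% of all genes, and the median was 0.29 against 0.0957. Without no PRDX1 + RANKL replicate 2 the calls were 7. *Atad3a*, an inner membrane ATPase that associates with mitochondrial nucleoids, rose by 0.95 (adjusted p = 9.01e-07), *Endog*, a mitochondrial nuclease, by 0.76 (adjusted p = 2.99e-05) and *Twnk*, the mitochondrial helicase, by 0.74 (adjusted p = 4.36e-06). *Polg2*, the accessory subunit of the polymerase, fell by 0.66 (adjusted p = 2.49e-04), from 4.69 ± 0.09 to 2.60 ± 0.34 FPKM (SD, n = 2), while *Polg* was at 9.68 and 9.65 FPKM in the same groups. *Polrmt*, the mitochondrial RNA polymerase, had 0.30 (adjusted p = 0.0237) and *Tfb1m* 0.46 (adjusted p = 0.00487). PRDX1 under RANKL called 0 of the 29 by limma and 1 by voom, where limma called 10.2% of all genes. Of the 29, 14 had an unadjusted p under 0.05, for which no share of all genes was counted. By adjusted p alone 9 were lower and 1 higher, against 25.6% and 16.9% of all genes, and the median was -0.14 against -0.0571, or -0.24 without no PRDX1 + RANKL replicate 2. Leaving out no PRDX1 + RANKL replicate 2 or PRDX1 + RANKL replicate 2 gave 1 call. Protein import and folding genes had 12 of 25 called higher with RANKL alone, against 11.8% of all genes, with a median of 0.57 against 0.0957, led by *Hspd1*, the HSP60 chaperonin, which rose by 1.10 (adjusted p = 2.91e-08). *Tomm70a* and *Tomm40*, of the outer membrane import machinery, rose by 0.98 (adjusted p = 1.30e-07) and 0.93 (adjusted p = 4.68e-06). PRDX1 under RANKL lowered 23 of the 25 by adjusted p alone, against 25.6% of all genes, and none of the 25 had a positive change, with a median of -0.38 against -0.0571. The fold of 1.5 was reached by 1 of them, *Hspd1*, which fell by 0.61 (adjusted p = 5.31e-06), where 4.17% of all genes were called lower. It was not called under quantile, upper quartile or voom scaling, and without no PRDX1 + RANKL replicate 2 the calls were 2.

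PPARγ target genes were called in both directions. Of 20 listed genes 17 were tested, and RANKL alone called 3 higher and 4 lower, where 11.8% and 9.96% of all genes were, with a median of -0.11 against 0.0957 for all genes. Leaving out no PRDX1 + no RANKL replicate 2 gave a median of -0.06, and leaving out no PRDX1 + RANKL replicate 1 gave one of -0.07. *Mrc1*, the mannose receptor, fell by 3.46 (adjusted p = 5.06e-10), from 232 ± 23 to 20.2 ± 2.5 FPKM (SD, n = 2). *Cd36*, the fatty acid and oxidised LDL receptor, fell by 2.94 (adjusted p = 5.39e-10), from 564 ± 6 to 72.8 ± 9.6 FPKM. *Nr1h3*, which encodes the sterol receptor LXRα, rose by 2.33 (adjusted p = 5.19e-08). PRDX1 under RANKL called 7 higher and 1 lower, where 6.03% and 4.17% of all genes were, with a median of 0.37 against -0.0571 for all genes. *Cd36* rose by 1.61 (adjusted p = 1.34e-07), *Fabp4*, a fatty acid carrier, by 1.54 (adjusted p = 5.50e-06), and *Abca1*, the cholesterol exporter, by 0.99 (adjusted p = 3.07e-05). The call in the other direction was *Acaa2*, a mitochondrial thiolase, which fell by 0.80 (adjusted p = 4.73e-06). Without RANKL, where the *Pparg* change was -0.19, PRDX1 called 6 targets higher and 1 lower, where 3.80% and 1.99% of all genes were. *Nr1h3* rose by 1.49 (adjusted p = 8.16e-06), *Fabp5* by 1.36 (adjusted p = 2.49e-07) and *Hilpda*, a lipid droplet protein, by 1.21 (adjusted p = 1.65e-06), while *Mrc1* fell by 1.11 (adjusted p = 1.06e-05). *Mrc1* and *Cd36* are also macrophage genes, and the macrophage marker sums given above were lower with RANKL alone. With PRDX1 alone, where *Mrc1* was at 107 ± 4 FPKM (SD, n = 2), the macrophage marker sum lay within the range of the cells without additions.

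**Figure D5:**
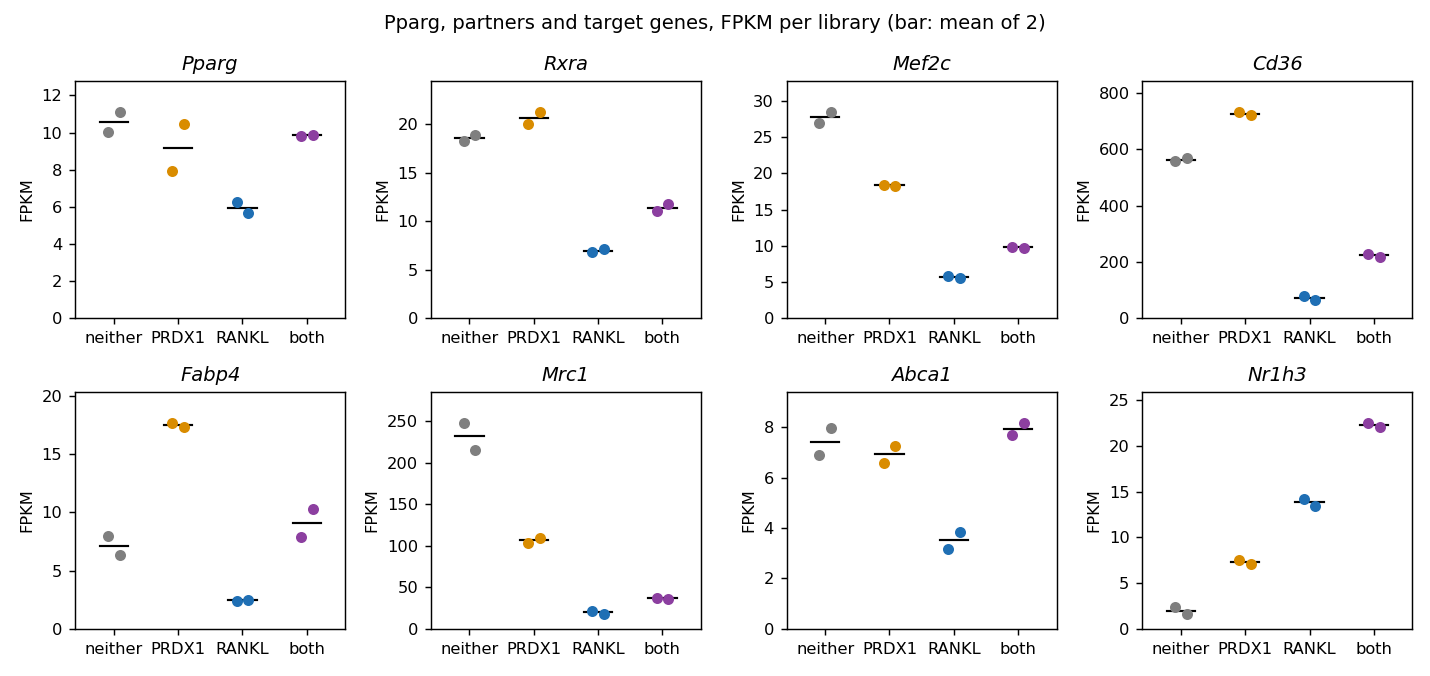
FPKM (vertical axis, from 0, a different scale in each panel) of *Pparg*, 2 partner genes (*Rxra*, *Mef2c*) and 5 PPARγ target genes in the 4 groups (horizontal axis). Points are single libraries and bars the mean of 2. All but *Nr1h3* are lowest with RANKL alone, where *Pparg* is at 6.25 and 5.67 FPKM. *Fabp5* and *Hilpda*, named in the text but not shown, are lowest without additions.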

How the data were processed

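RNA was sequenced as 100-base paired-end reads from 8 cultures, 2 in each of 4 groups. The submitters' processing notes name HISAT2, HOMER, DESeq2 and mm10, with no versions. The authors counted reads on the exons of 1 RefSeq transcript per gene without regard to strand and deposited FPKM values for 25124 genes. Read numbers were recovered from FPKM and length: in each library 100% of the genes checked gave whole reads (tolerance 0.1 read), with totals of 27284653 to 46171827.

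The test was limma 3.58.1 (R 4.3.3) on log2(FPKM + 1), fitted to all 4 groups at once with its trend option and 4 residual degrees of freedom, for genes whose mean FPKM reached 0.5. P-values were adjusted by Benjamini-Hochberg over 11700 genes. The interaction was judged by adjusted p alone. An exact permutation test of 2 against 2 libraries cannot go below p = 0.333. Replicate pairs differed by more than counting noise (chi-square per degree of freedom 4.71 to 9.58) and were kept apart.

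All 9 regulators are reported in every group. From each pathway list up to 3 called genes with the largest change per comparison are named, and for each regulator called in any comparison the 3 genes with the highest Pearson r over the 8 libraries. *Rxrb*, *Ppard*, *Polg2*, *Pprc1*, *Alas1*, *Cpt1a*, *Acadm*, *Acadl*, *Acaa2*, *Polrmt*, *Tfb1m* and *Ucp2* were chosen after their values were seen, beside those the rule gives, and a gene that the rule gives is not reported here. The regulators and lists were chosen with earlier results of these data known. Alternatives were a pseudocount of 0.1, other filters and scalings, voom on the recovered reads with scaling by trimmed means, a replicate block and leaving out each library. Steps were tested on simulated data.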

Additional observations from a re-analysis of the deposited data

Results flagged for a closer look

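The effect of PRDX1 differed between cultures with and without RANKL for 4 of the 8 regulators, by limma's interaction term on the log2(FPKM + 1) scale, which passed for 23.1% of all genes. The effect under RANKL minus that in its absence was -1.04 for *Ppargc1b* (SE 0.14, adjusted p = 6.53e-04), -0.61 for *Esrra* (SE 0.09, adjusted p = 8.26e-04), -0.47 for *Tfb2m* (SE 0.13, adjusted p = 0.0255) and 0.84 for *Pparg* (SE 0.15, adjusted p = 0.00362). *Tfb2m* lost its adjusted p without any 1 of 6 of the 8 libraries. Under RANKL both libraries with PRDX1 lay below both without it for *Ppargc1b*, *Esrra* and *Tfb2m* and above both for *Pparg*. In the absence of RANKL the libraries with and without PRDX1 overlapped for all 4 genes. The 4 genes were picked by the interaction in these same libraries, so this pattern is no separate test. How many of all genes have it was not counted. With no filter on low values the interactions of *Tfb2m* and *Pparg* lost their adjusted p.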

How the results depend on the processing

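The count of regulators called was as reported under 79 of 95 alternatives and within 1.5 times of it under 90. For RANKL without PRDX1 it was 3 with a pseudocount of 0.1 and without any 1 of the 4 libraries compared, and for the interaction it was 3 without 6 of the 8 libraries in turn, *Tfb2m* being lost. *Ppargc1b* became the 1 call of RANKL with PRDX1, and the 1 call of both proteins against none, with a pseudocount of 0.1 and with voom. With no filter on low values, the interaction kept 2 (*Ppargc1b* and *Esrra*), and lost *Tfb2m* (adjusted p = 0.162) and *Pparg* (adjusted p = 0.0887). *Esrra* under RANKL was called with a pseudocount of 0.1 (0.61). Replicate numbers did not pair the libraries: deviations of same-numbered libraries correlated at 0.0085 to 0.0965 over the 6 pairs of groups. With the number as a replicate block, the counts were 0 for PRDX1 without RANKL, 2 for PRDX1 with RANKL, 2 for RANKL without PRDX1, 0 for RANKL with PRDX1, 0 for both against none and 4 for the interaction.

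Changes that turned sign were all uncalled. For *Nrf1*, RANKL without PRDX1 was -0.0123 under quantile normalization and -0.00428 with voom, and both against none was -0.0413, -0.0100 and -0.0173 under quantile, upper quartile and voom scaling. *Tfb2m* in RANKL with PRDX1 was -0.0107 (quantile) and -0.0163 (voom), and the *Polg* interaction 0.00979 (upper quartile) and 0.0118 (voom). Over left-out libraries, *Tfb2m* ran from -0.145 to 0.0240 for PRDX1 without RANKL and from -0.0880 to 0.0808 for both against none. *Nrf1* ran from -0.133 to 0.000690 for PRDX1 with RANKL, from -0.0221 to 0.166 for RANKL without PRDX1, from -0.0882 to 0.0998 for both against none and from -0.0437 to 0.144 for the interaction. *Polg* ran from -0.161 to 0.0108 for PRDX1 with RANKL, from -0.0929 to 0.0793 for RANKL without PRDX1, from -0.0501 to 0.0339 for RANKL with PRDX1 and from -0.0874 to 0.0848 for the interaction. For RANKL with PRDX1 *Esrra* ran from -0.0813 to 0.0379 and *Pparg* from -0.0768 to 0.278, and the *Gabpa* interaction from -0.0154 to 0.0885. The cause was not tested.

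With 2 libraries a group, 4 residual degrees of freedom and low *Ppargc1b* levels, sizes are loosely set: its change by RANKL was 1.37 to 2.52 and by PRDX1 under RANKL -1.68 to -1.06 over the other settings. Scaling and filters also moved some medians of pathway lists. For RANKL without PRDX1, the PGC-1 partner list was at 0.102, 0.112 and 0.0872 under quantile, upper quartile and voom scaling and 0.0955 with no filter on low values. The PPARγ targets were at -0.188 (quantile) and -0.236 (voom). The medians of all genes moved as well, to 0.0242, 0.0375 and 0.0142 under quantile, upper quartile and voom scaling. For PRDX1 with RANKL, the PPARγ targets were at 0.194 with no filter. The mitochondrial DNA list was at -0.0954 (upper quartile) and -0.0790 (voom), against -0.0150 and -0.00344 for all genes. For PRDX1 without RANKL, the respiration list was at -0.0496 (upper quartile) and -0.0418 (voom), against -0.00774 and 0.000843 for all genes. With a pseudocount of 0.1 and under upper quartile scaling 1 gene of the mitochondrial DNA list was called for PRDX1 with RANKL, and with voom 2 dynamics and clearance genes were called for PRDX1 without RANKL.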

Other observations

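Of 20 listed genes of mitochondrial dynamics and clearance, RANKL alone called 2 higher (1 under quantile or upper quartile scaling), where 11.8% of all genes were, *Phb2* and *Phb*, the inner membrane prohibitins, which rose by 0.89 (adjusted p = 2.37e-06) and 0.64 (adjusted p = 7.15e-06). PRDX1 called *Sqstm1*, the p62 receptor of selective autophagy, in both settings. It rose by 0.81 in the absence of RANKL (adjusted p = 3.20e-06), from 156 ± 5 to 275 ± 4 FPKM, and by 0.85 in its presence (adjusted p = 1.12e-06), from 157 ± 10 to 283 ± 5 FPKM (SD, n = 2). PRDX1 under RANKL called 2 of the 20, both higher, where 6.03% of all genes were. By adjusted p alone 10 were lower and 3 higher, against 25.6% and 16.9% of all genes, with a median of -0.18 against -0.0571. *Optn*, another mitophagy receptor, rose by 0.64 with PRDX1 under RANKL, from 1.74 ± 0.16 to 3.26 ± 0.09 FPKM.

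Among 10 tested genes of the antioxidant and uncoupling list, RANKL alone lowered *Cat* (catalase, chiefly a peroxisomal enzyme) and *Prdx5* and raised *Sod2*, the mitochondrial superoxide dismutase. These were 3 calls, where 21.8% of all genes were called. By adjusted p alone 7 were higher and 2 lower, against 37.0% and 22.9% of all genes, with a median of 0.29 against 0.0957. *Cat* fell by 1.29 (adjusted p = 4.66e-09) and *Prdx5* fell by 0.66 (adjusted p = 1.09e-06), while *Sod2* rose by 0.78 (adjusted p = 4.23e-06). With PRDX1 under RANKL, 6 of the 10 were lower and 2 higher by adjusted p alone, against 25.6% and 16.9% of all genes. The median was -0.21 against -0.0571, or -0.0857 against -0.0320 under quantile normalization. PRDX1 under RANKL called 1 of the 10, *Prdx5*, which rose by 0.68 (adjusted p = 2.28e-06), where 10.2% of all genes were called. The count was 2 under quantile, upper quartile and voom scaling and without PRDX1 + RANKL replicate 1. *Sod2* had -0.03 in that comparison (adjusted p = 0.787), at 30.9 ± 0.7 FPKM with RANKL alone and 30.3 ± 0.6 FPKM with both. *Ucp2*, an inner membrane carrier, had 0.33 with RANKL alone (adjusted p = 0.00118) and -0.48 with PRDX1 under RANKL (adjusted p = 1.97e-04), both short of the fold of 1.5.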
